A study of Mus musculus with 6 samples.

Results

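Endoplasmic reticulum (ER) chaperones and factors of the unfolded-protein response were examined in microglia from mice with and without a functional gene for cannabinoid receptor 1 (Cnr1). The group consists of 10 genes taken by symbol from the 19225 genes listed: Hspa5, Hsp90b1, Calr, Canx, Pdia3, Pdia4, Pdia6, Xbp1, Atf4 and Syvn1. All 10 were among the 6659 genes that reached an average of 10 cpm, the count scaled to a library of standard size, and were tested for a difference between genotypes.

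The samples were CD11b+ cells from the brains of stress-naïve male mice, which the labels give as 3 months old, while the study's methods name a younger adult age. There were 3 libraries labelled Cnr1+/+ (C57BL6/J, genotype wt/wt) and 3 labelled Cnr1-/- (strain Cnr1 tm1Zim, genotype d/d), 1 library per mouse. In the Cnr1-/- line a neomycin cassette disrupts the coding region of the receptor in every cell from conception, on a C57BL/6J background, so the loss is not limited to microglia. The cells were enriched on CD11b magnetic beads after perfusion and Percoll removal of myelin, from brains without cerebellum, and the 3′ ends of polyadenylated RNA were sequenced.

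Proteins that enter the secretory pathway fold in the ER with the help of chaperones, of enzymes that form and exchange disulphide bonds, and of lectins that hold newly glycosylated proteins until they are folded. When unfolded proteins accumulate, the sensors IRE1, PERK and ATF6 raise the production of these helpers through the transcription factors XBP1, ATF4 and cleaved ATF6, and proteins that cannot be folded are returned to the cytosol for degradation. Microglia, the resident macrophages of the brain, synthesise many surface receptors and secreted proteins and rely on this machinery. The question posed here was whether the transcripts of the machinery differed between the genotypes in the absence of stress.

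Promoters were searched for the known response element of chaperone genes, since the group was taken by symbol and not by sequence. Genes of this response are known to carry the element, so its presence is given as a description. This ER stress response element (ERSE) consists of CCAAT, 9 bases of any kind, and CCACG, and is bound by NF-Y and by ATF6 or XBP1. It was searched on both strands in the RefSeq promoter windows (GRCm38.p6), which reach from 250 bases before to 50 bases after the start of a transcript. All 10 genes matched a window, and 6 of 10 held an ERSE, against 37 of all 27025 genes with a window (0.137%), or 39 of 32851 windows (0.119%). The copies are printed on the strand of their gene, 5′ to 3′, to show the bases around and between the CCAAT and CCACG parts, which were searched for exactly and are in capitals.
Hspa5, chr2:34772017-34772051, plus strand: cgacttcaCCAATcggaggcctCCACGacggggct
Hsp90b1, chr10:86705630-86705664, minus strand: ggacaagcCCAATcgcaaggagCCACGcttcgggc
Hsp90b1, chr10:86705525-86705559, minus strand: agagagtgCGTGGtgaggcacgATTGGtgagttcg
Calr, chr8:84847067-84847101, minus strand: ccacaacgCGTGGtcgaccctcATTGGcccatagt
Canx, chr11:50325792-50325826, minus strand: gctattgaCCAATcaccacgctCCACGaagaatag
Pdia6, chr12:17266483-17266517, plus strand: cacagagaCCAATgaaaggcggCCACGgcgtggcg
Syvn1, chr19:6046524-6046558, plus strand: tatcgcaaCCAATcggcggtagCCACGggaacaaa

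In Calr and in the nearer copy of Hsp90b1 the element ran in the opposite orientation, so that CCACG and CCAAT appear as CGTGG and ATTGG. The copy of Syvn1 lay nearest to its start site, 44 bases upstream, followed by Hspa5 at 65, Pdia6 at 98, Hsp90b1 at 107 and 212, Canx at 145 and Calr at 162 bases. No exact match was found in the windows of Pdia3, Pdia4, Xbp1 and Atf4. The windows follow the RefSeq start, which for Pdia4 and Xbp1 lay 82 and 18 bases upstream of the gene start in the annotation of the values. It lay 127 bases downstream of that start for Pdia3, 120 for Hspa5, 65 for Hsp90b1, 44 for Pdia6 and 3 for Calr, so these windows reach less far upstream. Outside the 10 genes, 31 genes held an ERSE, of which 4 belong to the lists of the pathway used below (Creld2, Dnajc3, Derl3 and Ero1b). Other elements of the response were searched in the same windows, namely ERSE-II (ATTGG, 1 base, CCACG), the unfolded-protein response element TGACGTGG and an ATF4 site (TGATG, 1 base, AA). None of the 10 windows held any of these, which occurred in 0.0365%, 0.676% and 3.97% of all windows.

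**Figure D1:**
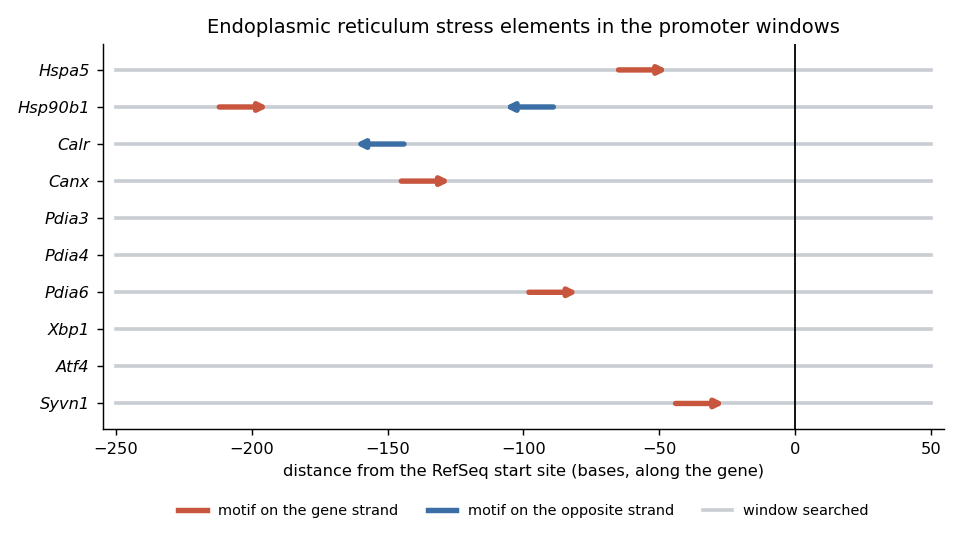
Position of each ERSE copy relative to the RefSeq start site, in bases, with 1 line for each of the 10 genes. The 7 copies in 6 genes lay between 44 and 212 bases upstream of the start.

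The effective library size after TMM scaling, derived from the value that 1 read contributes, ran from 7708812 to 10723826, and a value of 0 allowed for up to 0.280 to 0.389 cpm. As a check of the labels, Cnr1 was listed at 0 in all 3 libraries labelled Cnr1+/+ and at 1.41, 1.21 and 1.79 cpm (13, 13 and 15 reads) in the libraries labelled Cnr1-/-. This order runs against the names of the groups, and whether the 3′ reads came from the disrupted coding region was not tested. The groups are therefore named by the labels of their libraries throughout, and every direction below follows from those labels. The 12 microglia markers summed to between 15231 and 17684 cpm. One library stood apart, replicate 2 labelled Cnr1-/-, in which 10 neutrophil markers summed to 4075 cpm and 7 erythrocyte markers to 2342 cpm, against 267 to 526 cpm and 136 to 237 cpm in the other 5 libraries. Values without this library are given where they end a call.

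For 8 of the 10 genes of the ER folding machinery, the values of the groups overlapped. A nominal p under 0.05 was found for 1 of 10 genes, Syvn1, which was higher in the libraries labelled Cnr1-/-, while 6.02% of all genes tested passed this threshold, 5.09% with higher and 0.931% with lower values in the libraries labelled Cnr1-/-. The stricter call, for which the adjusted p must lie under 0.1 and the fold change exceed 1.5, was met by 0 of 10 genes and by 0.0901% of all genes. A count of 1 of 10 lies too near this background to be a result about the group. The values of 2 genes, Pdia4 and Syvn1, did not overlap between the groups and were higher in the libraries labelled Cnr1-/-, where 8.85% of all genes showed such a pattern, and 0 of 10 were lower without overlap, against 2.13% of all genes. The median log2 difference (Cnr1-/- minus Cnr1+/+) was 0.02 over the 10 genes and 0.08 over all genes tested. Summed over the 10 genes, the libraries labelled Cnr1+/+ held 2275 ± 141 cpm and those labelled Cnr1-/- 2323 ± 136 cpm (SD, n = 3 each). In bulk samples, a lower number of cells of a type and less RNA per cell cannot be told apart. Since 1 transcript gives about 1 read in 3′ libraries, the values are not divided by length and are compared between libraries but not between genes.

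**Figure D2:**
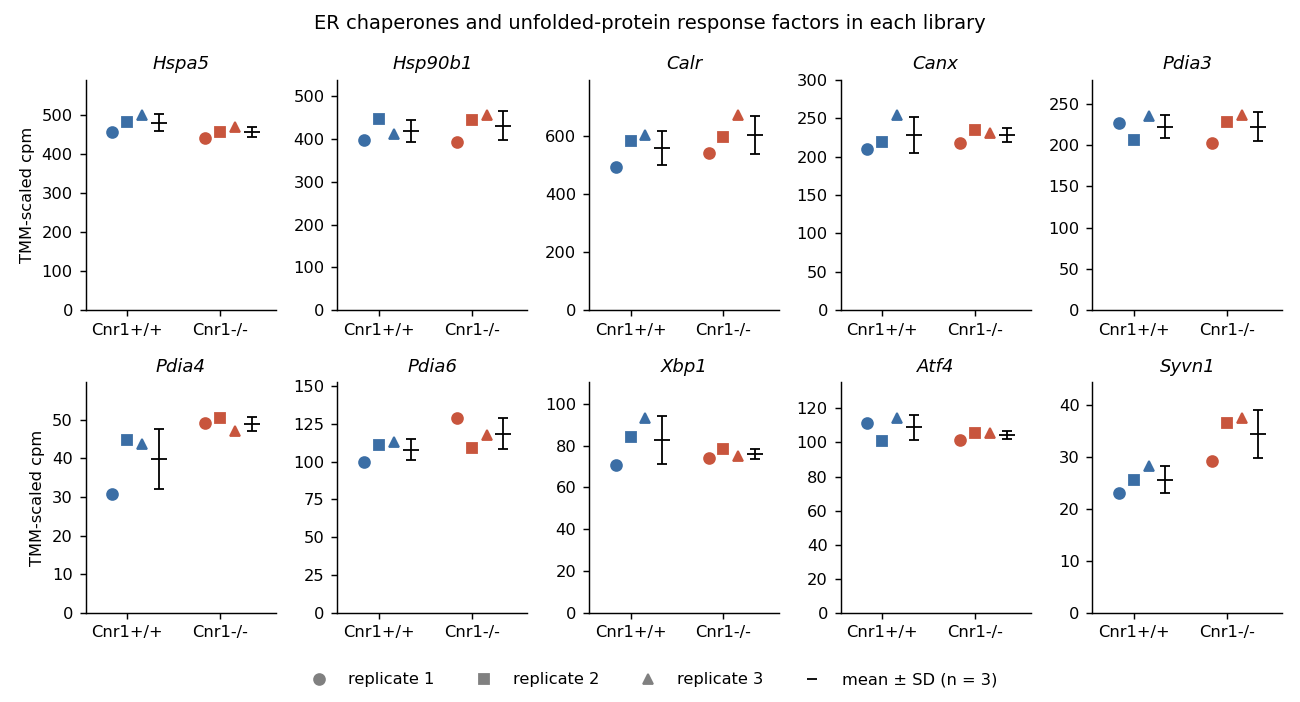
Values in cpm of the 10 genes in each of the 6 libraries, with a panel for each gene, points for libraries and bars for the group mean and SD (n = 3 per group). The groups overlap for 8 of 10 genes, and all values labelled Cnr1-/- lie above all values labelled Cnr1+/+ for Pdia4 and Syvn1.

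The soluble chaperones of the ER lumen come first. Hspa5 (BiP, chr2:34771970-34777547, mm10, plus strand) is the Hsp70 of the ER, which binds exposed hydrophobic stretches of unfolded chains and also keeps the stress sensors inactive. It was measured at 458, 483 and 501 cpm in the libraries labelled Cnr1+/+ and at 443, 458 and 470 cpm in those labelled Cnr1-/-. The 2 groups overlapped within a narrow range, and the highest library exceeded the lowest by a factor of 1.13. The log2 difference was −0.07 (SE 0.112, 95% interval −0.30 to 0.16, limma, adjusted p = 0.954), so the interval of the fold change reached from 0.810 to 1.12. Hsp90b1 (GRP94, chr10:86690209-86705509, minus strand) is the Hsp90 of the ER, which completes the folding of Toll-like receptors and integrins. Its values were 398, 447 and 412 cpm in the libraries labelled Cnr1+/+ and 393, 444 and 457 cpm in those labelled Cnr1-/-. The lowest and the highest value were both found in libraries labelled Cnr1-/-, and the log2 difference of 0.04 (SE 0.116, limma, adjusted p = 0.979) was smaller than its error. This gene overlaps 1 annotated gene on the opposite strand, which reached 7.57 cpm.

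The lectin chaperones calreticulin and calnexin bind monoglucosylated glycoproteins, and Pdia3 (ERp57) is the oxidoreductase recruited by both. Calr (chr8:84841850-84846934, minus strand) was measured at 494, 582 and 605 cpm in the libraries labelled Cnr1+/+ and at 540, 597 and 673 cpm in those labelled Cnr1-/-. Its groups overlapped, with a log2 difference of 0.11 (SE 0.122, 95% interval −0.14 to 0.36, limma, adjusted p = 0.941). The processed pseudogene Calr-ps was listed separately at 29.7 to 41.8 cpm, so the division of reads between the copies makes the level of Calr uncertain by an amount of this size. Canx (chr11:50293961-50325673, minus strand), the membrane-bound partner of calreticulin, was found at 210, 220 and 255 cpm in the libraries labelled Cnr1+/+ and at 218, 235 and 231 cpm in those labelled Cnr1-/-. Both group means were 228 cpm, and the 95% interval of the log2 difference reached from −0.24 to 0.25 (limma, adjusted p = 0.995). Pdia3 (chr2:121413775-121438687, plus strand) was measured at 226, 206 and 235 cpm in the libraries labelled Cnr1+/+ and at 203, 227 and 236 cpm in those labelled Cnr1-/-. The group means were again equal, at 222 cpm, with a 95% interval of −0.25 to 0.24 on the log2 scale (limma, adjusted p = 0.999).

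Among the protein disulphide isomerases, which form, break and exchange disulphide bonds in folding proteins, Pdia4 (ERp72, chr6:47796141-47813430, minus strand) differed more. It was measured at 30.9, 44.8 and 43.8 cpm in the libraries labelled Cnr1+/+ and at 49.0, 50.5 and 47.0 cpm in those labelled Cnr1-/-. The groups did not overlap, the libraries labelled Cnr1-/- were close to each other, and replicate 1 labelled Cnr1+/+ was well below the rest. The log2 difference was 0.31 (SE 0.166, 95% interval −0.03 to 0.66) and did not pass the test, with a nominal p of 0.0695 in limma and an exact permutation p of 0.1. It was 0.41 without replicate 2 labelled Cnr1+/+ and 0.39 without replicate 3 labelled Cnr1+/+, both of them past the nominal threshold, and 0.14 without replicate 1 labelled Cnr1+/+. Pdia6 (chr12:17266545-17284770, plus strand), which also binds the sensor IRE1, was measured at 99.9, 111 and 113 cpm in the libraries labelled Cnr1+/+ and at 129, 109 and 117 cpm in those labelled Cnr1-/-. Its groups overlapped, because replicate 2 labelled Cnr1-/- lay below 2 of the libraries labelled Cnr1+/+, and the log2 difference was 0.13 (SE 0.129, limma, adjusted p = 0.910).

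Both transcription factors had slightly negative differences that did not pass the test. Xbp1 (chr11:5520659-5525893, plus strand) encodes the factor that becomes active when IRE1 removes a short intron from its mRNA. It was measured at 70.8, 84.3 and 93.5 cpm in the libraries labelled Cnr1+/+ and at 74.2, 78.5 and 75.0 cpm in those labelled Cnr1-/-. The libraries labelled Cnr1+/+ enclosed the narrow range of the libraries labelled Cnr1-/-, and the log2 difference was −0.12 (SE 0.140, 95% interval −0.40 to 0.17, limma, adjusted p = 0.945). Values summed per gene from 3′ ends do not separate the spliced from the unspliced form. Atf4 (chr15:80255184-80257541, plus strand) encodes the factor made when PERK or a related kinase slows translation, and it is controlled mostly at the level of its translation. Its values were 111, 101 and 115 cpm in the libraries labelled Cnr1+/+ and 102, 106 and 106 cpm in those labelled Cnr1-/-. The lowest and the highest library were both labelled Cnr1+/+, and the log2 difference was −0.06 (SE 0.127, limma, adjusted p = 0.967).

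Syvn1 (HRD1, chr19:6046576-6053712, plus strand) is the ubiquitin ligase in the ER membrane that marks misfolded proteins for degradation. It was measured at 23.0, 25.6 and 28.2 cpm in the libraries labelled Cnr1+/+ and at 29.1, 36.6 and 37.6 cpm in those labelled Cnr1-/-. All 3 libraries labelled Cnr1-/- were above all 3 labelled Cnr1+/+, but replicate 1 labelled Cnr1-/- was nearer to the highest Cnr1+/+ value than to the other Cnr1-/- values. The group means were 25.6 ± 2.61 and 34.4 ± 4.61 cpm (SD, n = 3 each), a fold change of 1.34 with a 95% interval of 1.04 to 1.73. On the log2 scale the difference was 0.42 (SE 0.180), for which limma gave a nominal p of 0.0265 (0.792 after adjustment) and the two-sided exact permutation test 0.1, the smallest p that 3 against 3 libraries allow. It rested on 177 to 392 reads per library. The nominal call was lost in limma without replicate 1 labelled Cnr1+/+ (0.35), without replicate 2 labelled Cnr1-/- (0.37) and without replicate 3 labelled Cnr1-/- (0.35). The second of these is the library with high neutrophil and erythrocyte markers. Syvn1 overlaps Mrpl49 on the opposite strand, which was listed at up to 11.004 cpm, and whether the counting used strand is not given in the sources used here.

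**Figure D3:**
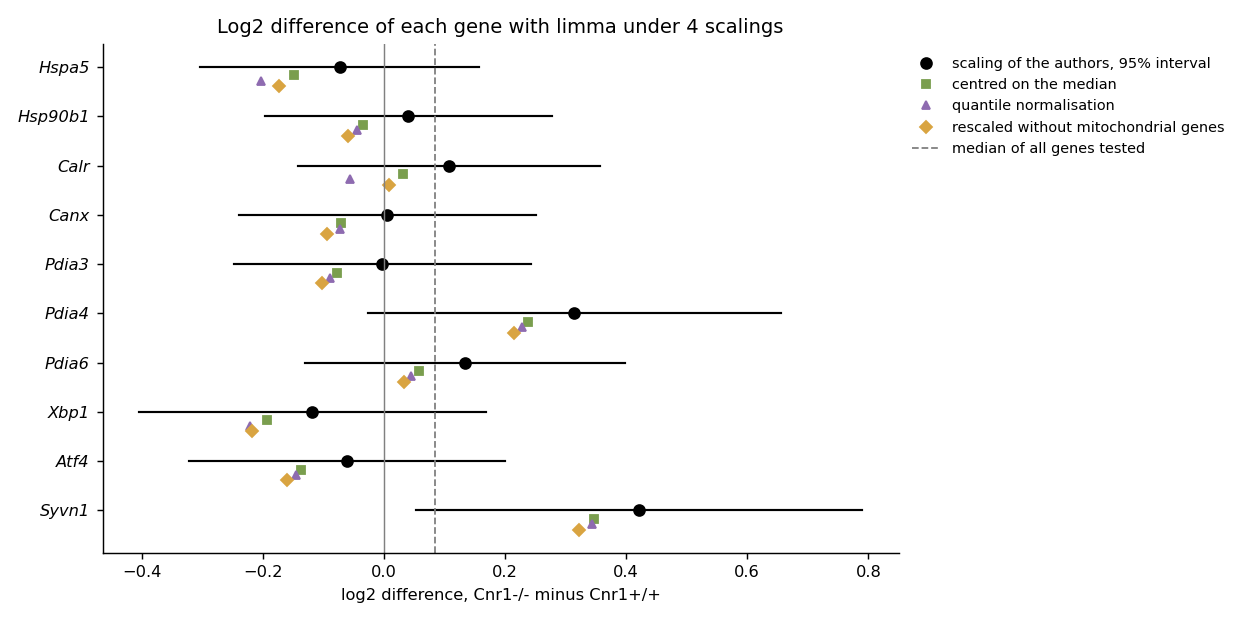
Log2 difference (Cnr1-/- minus Cnr1+/+) of the 10 genes with 95% intervals from limma, the values under the 3 other scalings as small symbols, and the median of all 6659 genes tested as a dashed line at 0.08. With the scaling of the authors, the interval of Syvn1 reached from 0.05 to 0.79, and those of the other 9 genes included 0.

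The choice of scaling moved the direction of several members. Over all genes tested, the median log2 difference was 0.08 with the scaling of the authors. It was close to 0 after each library was centred on its median (0.01), after quantile normalisation (−0.0014) and after the totals had been made equal with mitochondrial genes left out (−0.02). Under these 3 scalings, the libraries labelled Cnr1-/- were higher for 4, 3 and 4 of the 10 genes, against 6 of 10 with the scaling of the authors. Over all genes tested, these shares were 52.0%, 49.7% and 46.2%, against 68.4% with the scaling of the authors. The median over the 10 genes was −0.05, −0.06 and −0.08. The median of the 10 genes lay below that of all genes tested under each of the 4 scalings, a difference that is given as a description. Members that were lower without overlap numbered 3, 2 and 3 of 10 (5.27%, 5.63% and 6.42% of all genes), and members that were higher without overlap 2, 1 and 1 of 10 (5.24%, 4.85% and 4.17% of all genes). Hspa5 did not overlap between groups under any of the 3, with lower values in the libraries labelled Cnr1-/-, and passed the nominal threshold after quantile normalisation (−0.20). Xbp1 was likewise lower without overlap under all 3 (−0.19, −0.22 and −0.22), Atf4 after centring (−0.14) and Canx after rescaling (−0.09). Pdia4 was higher without overlap after centring (0.24) but its groups overlapped after quantile normalisation (0.23) and rescaling (0.21). Syvn1 remained higher without overlap under all 3, and missed the nominal threshold after rescaling (0.32). Hsp90b1 and Canx changed from slightly higher to slightly lower under all 3, with values between −0.04 and −0.09, and Calr did so after quantile normalisation (−0.06).

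The spread over the 6 libraries differed between the members. The ratio of the highest to the lowest library was 1.13 for Hspa5, 1.14 for Atf4, 1.16 for Hsp90b1, 1.17 for Pdia3 and 1.21 for Canx. It was 1.29 for Pdia6, 1.32 for Xbp1 and 1.36 for Calr, and reached 1.64 for both Pdia4 and Syvn1, the members with the fewest reads. The median of this ratio was 1.25 over the 10 genes and 1.51 over all genes tested. It was 1.30 over the 283 genes that averaged 200 cpm or more. The 5 members among these, Hspa5, Hsp90b1, Pdia3, Canx and Calr, had ratios of 1.13, 1.16, 1.17, 1.21 and 1.36. The coefficient of variation ran from 4.44% to 10.5% in 8 members, below the median of 15.2% over all genes tested. Those 8 members averaged 79.4 cpm or more, while the median average of all genes tested was 26.0 cpm. This coefficient was not compared at like levels. It was 15.9% in Pdia4 and 19.6% in Syvn1, while counting alone would give between 1.37% in Calr and 6.11% in Syvn1.

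Libraries differed in whether they held the extreme values. With the scaling of the authors, the lowest value fell in replicate 1 labelled Cnr1+/+ for 6 of 10 genes and for 38.1% of all genes tested. The highest value fell in replicate 3 labelled Cnr1+/+ for 4 of 10 genes (23.2% of all genes) and in replicate 3 labelled Cnr1-/- for 4 of 10 (18.4% of all genes). Replicate 2 labelled Cnr1-/- had the highest value for 31.7% of all genes but for 1 of 10 members. After centring on the median, this library had the lowest value for 5 of 10 members and for 12.7% of all genes. It had the highest for 0 of 10 members and for 13.8% of all genes. The neutrophil and erythrocyte markers were highest in the same library, and their part in this order was not tested.

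**Figure D4:**
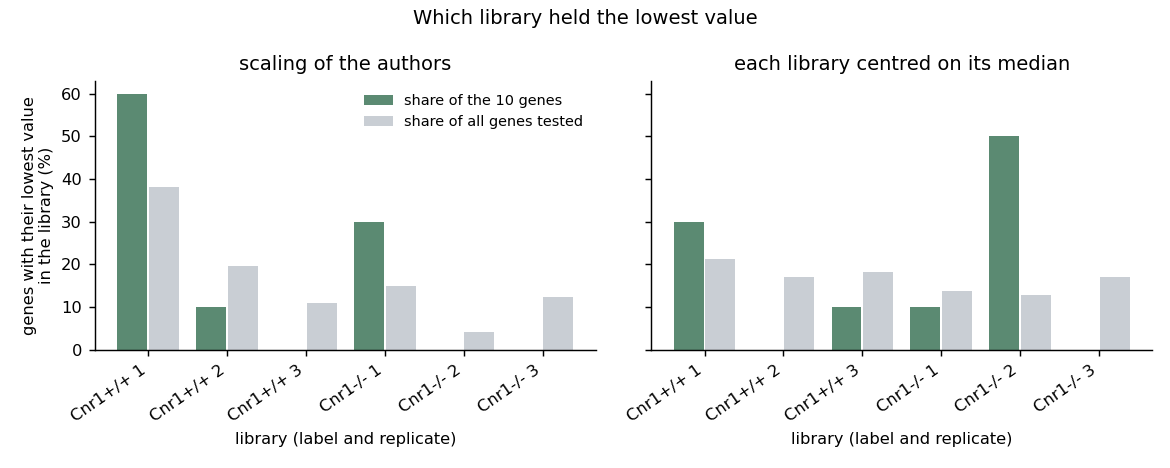
Share in percent of genes whose lowest value fell in each library, for the 10 members and all 6659 genes tested, with the scaling of the authors and after centring. Replicate 1 labelled Cnr1+/+ held the lowest value of 6 of 10 members before centring, and replicate 2 labelled Cnr1-/- that of 5 of 10 after it.

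The wider pathway was examined in 6 lists of 110 genes in all, none of them members, of which 108 were listed and 87 were tested. Of these, 4 passed the nominal threshold (4.60%, against 6.02% of all genes), all higher in the libraries labelled Cnr1-/-, and the median log2 difference was 0.06. The sensors and the proteases that cleave ATF6 had 4 of 6 genes tested and 0 called. Ern1 and Eif2ak3, which encode the sensors IRE1 and PERK, averaged 7.84 and 9.56 cpm, under the minimum of 10 cpm, and were not tested. Atf6 overlapped between groups, with a log2 difference of 0.06 (SE 0.236). Mbtps1, the site-1 protease, was at 46.7, 48.3 and 50.9 cpm in the libraries labelled Cnr1+/+ and at 44.2, 51.6 and 47.5 cpm in those labelled Cnr1-/-. Atf6b, a relative of ATF6, varied more, at 36.2, 27.1 and 34.1 cpm and at 27.0, 41.1 and 37.6 cpm, with a log2 difference of 0.10 (SE 0.185). Both genes overlapped between groups.

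Among the other ER chaperones and co-chaperones, 0 of 17 tested genes passed, with 10 higher, 7 lower and a median of 0.0043. Erp29, an escort of secretory proteins, was measured at 175, 180 and 197 cpm in the libraries labelled Cnr1+/+ and at 191, 181 and 173 cpm in those labelled Cnr1-/-. Dnajc3 (p58IPK), a co-chaperone of BiP with an ERSE in its promoter window, had equal levels of 87.0 and 87.1 cpm on average. The 4 tested genes outside the group that held an ERSE had log2 differences between −0.04 and 0.04, and 0 of 4 passed. The remaining oxidoreductases and enzymes of glycan processing had 0 of 9 called and a median of 0.08. P4hb, the founding protein disulphide isomerase, was at 79.1 ± 7.68 and 89.7 ± 9.50 cpm (SD, n = 3 each), and Ganab, the glucosidase that trims glycans for calnexin binding, at 56.9 ± 11.2 and 69.3 ± 9.06 cpm (SD, n = 3 each). The differences of P4hb (0.18, SE 0.138) and Ganab (0.29, SE 0.158) did not pass the test.

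The genes of ER-associated degradation besides Syvn1 had 2 of 19 called (10.5%), both higher in the libraries labelled Cnr1-/-, with 14 higher and 5 lower in all and a median of 0.08. Of all genes tested, 6.02% were called and 68.4% were higher. Both called genes encode ubiquitin-conjugating enzymes that work with ligases such as HRD1. Ube2j2, anchored in the ER membrane, was measured at 12.8, 18.3 and 18.4 cpm in the libraries labelled Cnr1+/+ and at 22.9, 24.2 and 21.0 cpm in those labelled Cnr1-/-. The groups did not overlap, and the log2 difference was 0.48 (SE 0.212, nominal p = 0.0336 in limma, exact permutation p = 0.1). Ube2g2, a soluble enzyme, was at 8.69, 14.9 and 20.1 cpm in the libraries labelled Cnr1+/+ and at 18.3, 23.7 and 19.6 cpm in those labelled Cnr1-/-. Its groups overlapped, with a log2 difference of 0.57 (SE 0.256, nominal p = 0.0358 in limma, exact permutation p = 0.3). Vcp, the ATPase that pulls substrates out of the membrane, was at 114 ± 11.8 and 126 ± 7.34 cpm (SD, n = 3 each), and Ubxn4, which helps to hold it at the ER, at 111 ± 13.8 and 110 ± 11.1 cpm (SD, n = 3 each). Neither Vcp nor Ubxn4 passed the test, and adjusted over all genes both Ube2j2 and Ube2g2 had a p of 0.809 in limma. The nominal calls of both were lost without replicate 2 labelled Cnr1-/- (0.43 for Ube2j2, 0.46 for Ube2g2) and without replicate 1 labelled Cnr1+/+ (0.31 and 0.24). The call of Ube2j2 was also lost without replicate 1 labelled Cnr1-/- (0.47) and after rescaling (0.38), and that of Ube2g2 without replicate 3 labelled Cnr1-/- (0.59) and after centring (0.49), quantile normalisation (0.48) and rescaling (0.47).

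The translocon, signal peptidase and oligosaccharyltransferase, through which proteins enter the ER and receive their glycans, had 0 of 21 called and a median of 0.09. Sec62 was measured at 242 ± 16.3 and 238 ± 22.6 cpm and Sec61a1, the channel itself, at 116 ± 16.5 and 120 ± 11.9 cpm (SD, n = 3 each). The integrated stress response and targets of ATF4 had 27 of 29 genes listed, 17 tested and 2 called (11.8%), both higher in the libraries labelled Cnr1-/-, with 12 higher, 5 lower and a median of 0.19. Over all genes tested, 6.02% were called, the median was 0.08 and 68.4% were higher, which is near the sign split of this list. Without overlap, 2 genes of the list were higher and 2 lower, against 8.85% and 2.13% of all genes. The other listed genes averaged under 10 cpm and were not tested. Eif2ak1 (HRI), a kinase of eIF2α that responds to haem shortage, was at 13.5, 16.3 and 18.9 cpm in the libraries labelled Cnr1+/+ and at 21.3, 26.3 and 24.0 cpm in those labelled Cnr1-/-. The groups did not overlap (log2 difference 0.56, SE 0.209, nominal p = 0.0121 in limma, exact permutation p = 0.1). The highest value was found in replicate 2 labelled Cnr1-/-, which had high erythrocyte markers, and the part of those cells in the values of Eif2ak1 was not tested. The nominal call was lost without replicate 2 labelled Cnr1-/- (0.49) and without replicate 1 labelled Cnr1+/+ (0.44). Ddit4, which restrains mTORC1 and is also induced by glucocorticoids, was at 44.6, 30.9 and 86.7 cpm in the libraries labelled Cnr1+/+ and at 214, 184 and 61.9 cpm in those labelled Cnr1-/-. It was the only listed gene of the pathway past the adjusted threshold (1.45, SE 0.304, limma, adjusted p = 0.0568, exact permutation p = 0.2), although replicate 3 labelled Cnr1-/- lay below replicate 3 labelled Cnr1+/+. Its adjusted call in limma was lost under the 3 other scalings (adjusted p between 0.526 and 0.604), where the difference itself was 1.37, 1.37 and 1.35, and without replicate 1 or 2 labelled Cnr1+/+ (adjusted p = 0.121 and 0.715) or replicate 1 labelled Cnr1-/- (adjusted p = 0.539). The amino acid transporter subunit Slc3a2 was at 110 ± 8.80 and 128 ± 9.44 cpm and the tRNA synthetase gene Nars at 116 ± 10.1 and 115 ± 15.2 cpm (SD, n = 3 each), and neither passed. The count over the 6 lists depended on single libraries, since 13 genes passed without replicate 3 labelled Cnr1+/+, 2 without replicate 1 labelled Cnr1+/+ and 1 without replicate 2 labelled Cnr1-/-. The share called over all genes moved as well, to 9.07%, 5.89% and 3.81%.

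**Figure D5:**
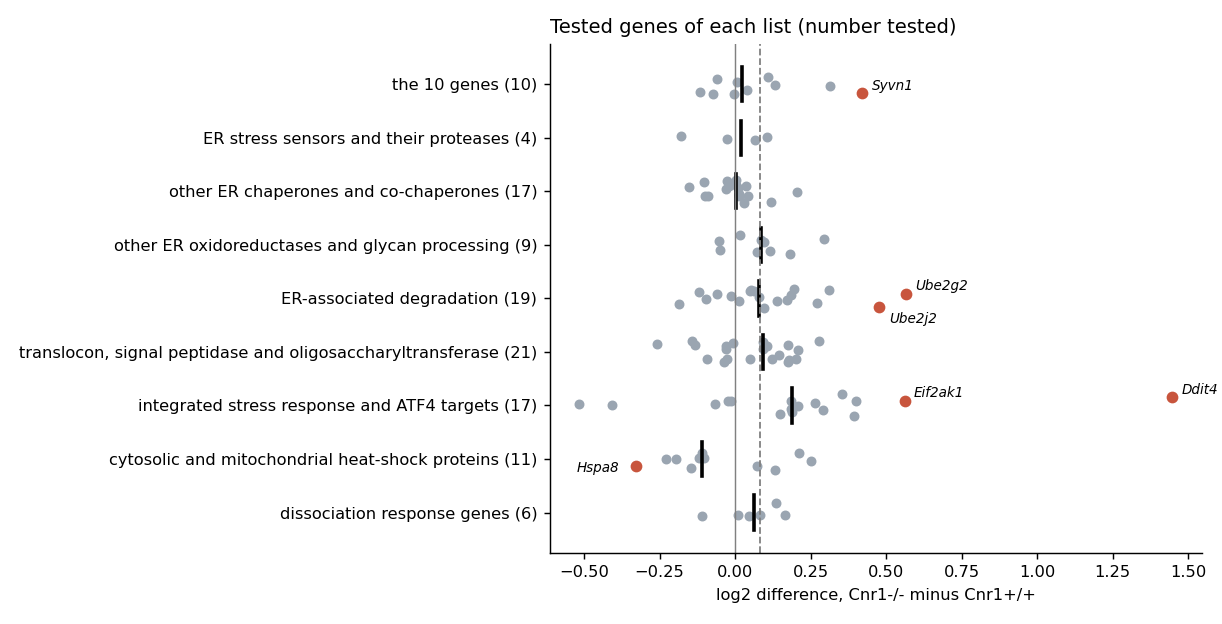
Log2 difference (Cnr1-/- minus Cnr1+/+) of each tested gene of the members, the pathway lists, the heat-shock proteins and the dissociation response genes. The median of each list is a bar, and genes past the nominal threshold are red and named, the others grey. The medians lay between −0.11 for the heat-shock proteins and 0.19 for the integrated stress response.

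Heat-shock proteins of the cytosol and the mitochondria, which serve the same purpose outside the ER, were listed for comparison. Of 11 tested genes, 1 passed and was lower in the libraries labelled Cnr1-/-, with 4 higher, 7 lower and a median of −0.11. Over all genes, 6.02% passed, 0.931% passed with lower values, 68.4% were higher and the median was 0.08. Hspa8, the constitutive cytosolic Hsp70, was measured at 200, 256 and 268 cpm in the libraries labelled Cnr1+/+ and at 171, 199 and 205 cpm in those labelled Cnr1-/-. Its groups overlapped in 1 library of each, and the log2 difference was −0.33 (SE 0.129, nominal p = 0.0173 in limma, exact permutation p = 0.2). The nominal call was lost without replicate 2 (−0.28) or replicate 3 (−0.25) labelled Cnr1+/+ and without replicate 1 labelled Cnr1-/- (−0.25). Under the 3 other scalings Hspa8 was called and lower without overlap (−0.40, −0.42 and −0.43). Hsp90ab1, the constitutive cytosolic Hsp90, was at 762 ± 67.4 and 692 ± 97.4 cpm (SD, n = 3 each) and did not pass. Genes of the response to tissue dissociation, which can rise while cells are isolated, had 0 of 6 called and a median of 0.06. Klf6 was at 73.6 ± 4.10 and 75.9 ± 4.99 cpm and Jun at 53.7 ± 2.71 and 57.4 ± 10.4 cpm (SD, n = 3 each).

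Markers of other cells that the CD11b beads may retain were summed beside these values. Plasma cells are rich in the ER machinery, and of 8 markers of B lymphocytes and plasma cells 5 were listed, with sums between 108 and 172 cpm. Most of this sum was Ighm, at 102 to 136 cpm. Igkc, an immunoglobulin light chain, ranged from 0.399 to 27.6 cpm and was highest in replicate 2 labelled Cnr1-/-, as was Jchain, which ranged from 0 in 2 libraries to 3.26 cpm. Markers of border-associated macrophages summed to 98.9 to 149 cpm, of neurons to 66.4 to 94.8 cpm, of astrocytes to 299 to 551 cpm, of oligodendrocytes to 423 to 856 cpm and of endothelial cells to 23.4 to 37.1 cpm. The part of these cells in the values of the ER genes was not tested.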

How the data were processed

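RNA of CD11b+ cells from 6 mice was analysed, 1 library each, with groups from the labels. Per the labels and the study's methods, the authors prepared 3′ libraries (QuantSeq FWD), aligned reads to mm10 with STAR, quantified genes in Partek Flow by expectation-maximisation and applied TMM. The values are CPM with TMM scaling, as deposited by the authors. Between 83.3% and 85.4% of values per library were whole multiples of 1 read (tolerance 0.02 of a read), so no count test was used.

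Genotypes were compared on log2(CPM + 0.1) with the functions lmFit and eBayes (with trend) of limma, version 3.58.1, run under R version 4.3.3. Genotype was the only term, 10 CPM the lowest mean a gene could have, and Benjamini-Hochberg adjustment covered all 6659 genes. The added 0.1 understates changes of low genes slightly. The log2 difference of Syvn1 was 0.422 with 0.1 and 0.423 with 0.0001. A call is a nominal p under 0.05, which the study terms nominal significance. Its threshold for differential expression, FDR under 0.1 and fold change over 1.5, was applied beside it. Single genes also had two-sided exact permutation tests. The fit was tested on simulated data. The alternatives changed the pseudocount (1 or 0.0001), dropped the filter or set it to 20, centred the libraries, normalised by quantiles, rescaled without mitochondrial genes, dropped trend or shrinkage, added replicate number as a block, or left out 1 library.

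The members and lists were chosen with earlier results of these data known. Named are all members, the genes of the sensors and, of each list, genes past the nominal threshold and the 2 most abundant tested genes. Gene coordinates are those of the values' annotation, and overlaps came from GENCODE vM21. Protein sequences were not used here.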

Additional observations from a re-analysis of the deposited data

How the results depend on the processing

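Across 16 alternatives for each of the 10 members, 138 of 160 values kept their direction and their side of the nominal threshold. The number of members past the threshold was 1 with the reported settings (6.02% of all genes), 2 after quantile normalisation (5.41%), 0 after rescaling without mitochondrial genes (5.32%), and 0 to 2 when each library was left out (3.81% to 9.07%). Members without overlap numbered 2 (10.98% of all genes), 5 after centring (10.5%), 3 after quantile normalisation (10.5%) and 4 after rescaling (10.6%), and 2 to 4 with a library left out (17.5% to 26.1% of all genes). Pathway genes past the threshold numbered 4, but 2 with a minimum mean of 20 (6.37% of all genes), and 1 to 13 with a library left out, where the same 3.81% to 9.07% of all genes passed. The signs of Hsp90b1 (−0.0351 centred, −0.0442 quantile, −0.0591 rescaled, −0.00301 to 0.106 with a library left out), Calr (−0.0554 quantile), Canx (−0.0699 centred, −0.0728 quantile, −0.0940 rescaled, −0.0525 to 0.0874 with a library left out) and Pdia3 (−0.0549 to 0.0626 with a library left out) turned, and the cause was not tested. In limma without a trend the nominal calls of Ube2g2 and Hspa8 were lost, as was the adjusted call of Ddit4 (adjusted p = 0.825), and without shrinkage those of Ube2j2, Ube2g2, Hspa8 and Ddit4 (adjusted p of Ddit4 0.888). The same replicate numbers did not pair the libraries (correlations of deviations −0.0557, −0.0316 and −0.0308). With the replicate number as a block, 1 member, 5 pathway genes and 421 of all genes passed, against 401 of all genes without it. With 3 libraries a group, the narrowest 95% interval of the log2 differences, that of Hspa5, ran from −0.30 to 0.16.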
